A study of Mus musculus with 4 samples.

Results

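Cardiomyocyte nuclei of base-edited mutant hearts were divided by whether they held transcripts of the editor. The comparison took 3357 nuclei of the corrected library out of 15153 barcodes in that library and 45992 in the series. Of these, 1317 held at least 1 UMI (a unique molecular identifier, 1 counted RNA molecule) of ABE_C or ABE_N, the added features that carry the editor's name, and are called editor-positive. The other 2040 held 0 UMIs of both and are called editor-negative. A nucleus was taken as a cardiomyocyte nucleus when it had at least 300 genes, at most 5% mitochondrial UMIs, at least 2.5% of its UMIs from Ttn, Ryr2, Myh6 and Rbm20 together, at most 3 UMIs of the endothelial genes Flt1, Ptprb and Cyyr1, and at most 3 of the fibroblast genes Pdgfra, Dcn, Col1a2 and Abca8a. The nuclei were thus chosen by their editor UMIs, by the share of the 4 cardiomyocyte genes and by low counts of the endothelial and fibroblast genes. The values of all these below are a description of the choice.

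Hearts of C57BL/6 mice at 6 months of age were profiled as single nuclei with a 3′ droplet assay, in 1 library per genotype and with 3 hearts pooled in each library. Besides wild type (WT) there were mice with the Rbm20 mutation on 1 allele (Rbm20_het) or on both (Rbm20_homo), and homozygous mutant mice corrected by gene editing, whose hearts gave all editor-positive and editor-negative nuclei. The labels do not give the mutation, the promoter of the editor, its dose or the age at treatment, and they do not map nuclei to hearts. A difference between editor-positive and editor-negative nuclei therefore cannot be told apart from a difference between the 3 pooled hearts, and no p-value is given.

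RBM20 is an RNA-binding protein of heart muscle that represses the inclusion of exons in titin and in other transcripts of the contractile and calcium handling apparatus, and its mutations cause dilated cardiomyopathy. Adenine base editors join a nicking Cas9 to a deaminase that turns A-T pairs into G-C pairs, and for viral delivery the long coding sequence is often divided into a pair of pieces that are spliced together as proteins in the cell. A cell then needs both pieces. Whether ABE_C and ABE_N are such pieces is not stated in the sources used here.

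Cardiomyocyte nuclei by the same rule numbered 3178 in WT, 2490 in Rbm20_het and 2962 in Rbm20_homo, with median depths of 4853, 5694 and 5937 UMIs against 4546 in the corrected library. Editor-positive nuclei were deeper than editor-negative ones, with medians of 5337 and 4052 UMIs. All levels below are counts per 1000000 non-mitochondrial UMIs (CPM), summed over nuclei, and editor-negative, WT, Rbm20_het and Rbm20_homo levels were weighted to the depth quintiles of the editor-positive nuclei. Ratios are editor-positive over editor-negative on that matched scale. Brackets give 95% intervals of counting error only, with n = 1 library behind each set. The 14 genes of the ventricular cardiomyocyte marker list were all detected in both sets. Every nucleus of both sets had UMIs of the list, but the list includes the rule genes Ttn, Ryr2, Myh6 and Rbm20. UMIs of the list in every nucleus were therefore fixed by the choice of nuclei and are no test of their identity. The number of barcodes shared with the corrected cardiomyocyte nuclei was 12 in WT, 12 in Rbm20_het and 10 in Rbm20_homo.

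Of the sarcomere genes listed, Myh7b had the highest ratio; it is a myosin heavy chain gene that carries the microRNA miR-499 in an intron. MiR-499 itself is not measured by this assay. Its mature strand lies at chr2:155622893-155622913 on the plus strand (GRCm38.p6, RefSeq), and the capitals mark the seed, bases 2 to 8:
mmu-miR-499-5p: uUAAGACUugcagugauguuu

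The 250 bases upstream of the start in RefSeq are printed for 4 genes that later results turn on, 2 higher (Myh7b and Mylk4) and 2 lower (Casq1 and Ankrd1) in editor-positive nuclei. They were chosen after the values were seen, from RefSeq on GRCm38.p6, and each reads 5′ to 3′ on the strand of its gene. Capitals mark matches on either strand to CANNTG (the E-box), TAAAAATAG (a core of the site of the MEF2 muscle factors) and GATAA (the GATA site), which do not overlap one another here. The regions are chr2:155610993-155611242 (plus strand) for Myh7b, chr13:32783965-32784214 (minus) for Mylk4, chr1:172219896-172220145 (minus) for Casq1 and chr19:36119845-36120094 (minus) for Ankrd1. Gene spans given below are from GENCODE vM21, whose starts differ from those of RefSeq: the Ankrd1 window lies inside the GENCODE span of the gene, and the Myh7b window runs past the GENCODE start.
Myh7b: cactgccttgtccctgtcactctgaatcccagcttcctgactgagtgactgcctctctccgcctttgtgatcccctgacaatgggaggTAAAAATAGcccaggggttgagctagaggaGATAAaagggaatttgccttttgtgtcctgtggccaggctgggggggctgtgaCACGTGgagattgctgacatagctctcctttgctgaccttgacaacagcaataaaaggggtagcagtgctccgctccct
Mylk4: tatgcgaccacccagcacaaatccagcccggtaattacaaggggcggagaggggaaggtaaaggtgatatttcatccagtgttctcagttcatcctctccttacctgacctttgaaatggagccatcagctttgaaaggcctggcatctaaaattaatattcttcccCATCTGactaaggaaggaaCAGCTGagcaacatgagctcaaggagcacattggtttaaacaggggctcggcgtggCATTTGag
Casq1: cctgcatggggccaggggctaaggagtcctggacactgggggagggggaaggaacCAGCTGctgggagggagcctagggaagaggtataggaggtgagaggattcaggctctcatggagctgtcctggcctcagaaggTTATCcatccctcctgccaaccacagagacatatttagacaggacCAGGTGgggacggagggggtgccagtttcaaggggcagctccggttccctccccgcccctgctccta
Ankrd1: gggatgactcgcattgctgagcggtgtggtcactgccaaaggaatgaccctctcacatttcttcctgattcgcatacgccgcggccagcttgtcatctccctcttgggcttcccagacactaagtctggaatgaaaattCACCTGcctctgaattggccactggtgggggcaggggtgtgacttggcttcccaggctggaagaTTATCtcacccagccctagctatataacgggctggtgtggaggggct
The Myh7b region held 1 match to each of the 3 motifs, and the Mylk4 region held 3 E-box matches and no other. The Casq1 region held 2 E-box matches and 1 GATA match, and the Ankrd1 region 1 E-box match and 1 GATA match. Over all 32851 RefSeq promoters, the same window held an E-box match in 66.2%, a GATA match in 22.6% and a TAAAAATAG match in 0.454%.

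The first question was how the editor's transcripts were spread over the cardiomyocyte nuclei. They were detected in 39.2% of the nuclei [37.6 to 40.9], and in none of the barcodes of WT, Rbm20_het and Rbm20_homo. Most positive nuclei held few: 425 had 1 editor UMI, 220 had 2, 248 had 3 to 4, 264 had 5 to 9 and 160 had 10 or more, with a median of 3 and a highest value of 69. The nuclei with 10 or more made up 12.1% of the positive ones and held 43.8% of the editor UMIs. ABE_N gave 3550 UMIs and ABE_C 2516, a ratio of 1.41.

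Detection followed depth. The positive share was 20.7% in the shallowest quintile of total UMIs, then 33.0%, 37.3%, 47.0% and 58.1% in the deepest. An editor-negative nucleus is thus 1 in which no editor molecule was counted, which is not the same as 1 without the editor. When every nucleus was thinned to 1500 UMIs the share was 24.1% [22.6 to 25.6]. For comparison, endothelial nuclei of the same library were read (more than 3 UMIs of the endothelial genes, below the cardiomyocyte threshold). Of these 2.92% held an editor UMI at a median depth of 1755 UMIs, and 2.29% [1.62 to 3.13] after thinning. Fibroblast nuclei taken the same way stood at 3.44% at a median of 2481 UMIs, and at 1.76% [1.37 to 2.22] after thinning. There were 16.4 editor UMIs per 1000 Ttn UMIs in the cardiomyocyte nuclei [16.0 to 16.8], against 8.27 [6.80 to 9.97] in the endothelial and 8.76 [7.58 to 10.1] in the fibroblast nuclei. Whether the editor UMIs of these other nuclei came from free RNA, doublets or their own expression was not tested.

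**Figure D1:**
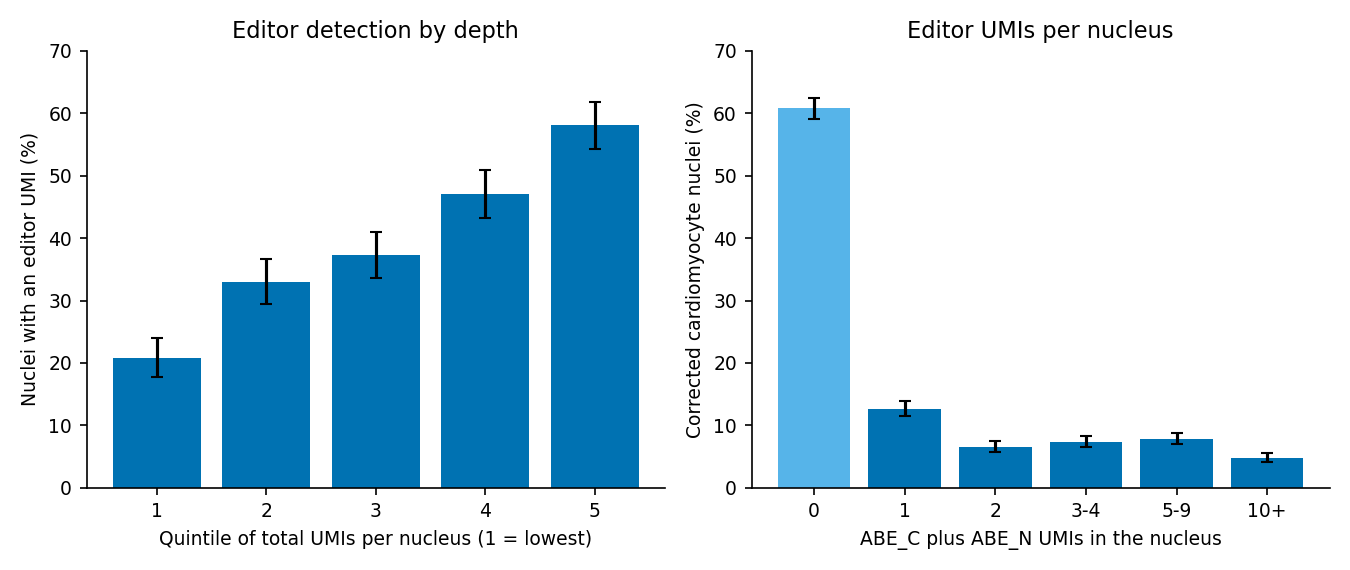
Left, the percent of corrected cardiomyocyte nuclei with at least 1 UMI of ABE_C or ABE_N in each quintile of total UMIs per nucleus; right, the percent of nuclei by their number of editor UMIs. Bars are shares of nuclei of 1 library and error bars are exact 95% binomial intervals; the positive share runs from 20.7% in the first quintile to 58.1% in the fifth.

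Both features were found together in 588 nuclei, ABE_N alone in 492 and ABE_C alone in 237. Independent detection within each depth quintile would have given 308 nuclei with both, so the observed number was 1.91 times that. The excess was present at every depth: 34 against 11 in the first quintile, 71 against 30.1, 108 against 46.2, 142 against 77.2, and 233 against 143 in the fifth. Near the threshold of the rule, 29 of 140 nuclei with 2.5 to 3% of UMIs from the 4 cardiomyocyte genes held an editor UMI (20.7%), and 9 of 98 just below it, with 2 to 2.5% (9.18%). Their median depths were 3900 and 2214.5 UMIs, and these shares were not matched on depth.

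The next question was whether the genes that mark the mutant library differed between editor-positive and editor-negative nuclei. They did so in both directions: genes low in Rbm20_homo were mostly higher in editor-positive nuclei, and genes high in Rbm20_homo were mostly lower there. The genes were chosen in WT and Rbm20_homo nuclei alone, where the interval of their ratio lay beyond 2-fold, which 2.79% of 9387 genes were on the higher and 4.94% on the lower side. Genes of the nuclei rule, of the marker lists of other cell types and of the clock and immediate early lists were then left out. This gave 251 Rbm20_homo-high and 456 Rbm20_homo-low members. Genes absent from these lists stayed in. Among the high members were the matrix genes Bgn (418 UMIs in Rbm20_homo and 110 in WT) and Cilp (151 and 4). How much RNA of other cells adds to the panels was not tested. A member or other gene was counted as measured when the editor-positive and editor-negative nuclei together held at least 100 of its UMIs, a filter over both sets, which 186 and 393 members and 9669 genes in all passed.

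Of the 393 measured Rbm20_homo-low members, 306 had a ratio above 1, where 56.3% of all measured genes did. A ratio of at least 25% above 1 was reached by 126 of them, or 32.1%, against 8.72% of all genes, and 16 had a ratio of 0.8 or less, at least 20% below 1. In all 5 depth quintiles 119 were higher, which 8.48% of all genes were. The median log2 ratio of these members was 0.19, and of all genes 0.03. Their summed level was 57165 CPM in WT, 44016 in Rbm20_het, 20014 in Rbm20_homo, 39755 in editor-negative and 46228 in editor-positive nuclei. Editor-negative nuclei were thus below Rbm20_het, and editor-positive nuclei above it.

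Of the 186 measured Rbm20_homo-high members, 139 had a ratio below 1, against 43.7% of all genes. A ratio of 0.8 or less was reached by 67, or 36.0%, against 6.41% of all genes, and 13 were at least 25% above 1. Over all genes, 843 were at least 25% higher and 620 at least 20% lower, a split that turned to 630 and 802 when Malat1 was left out of the total. In every depth quintile 47 were lower, which 5.24% of all genes were. Their median log2 ratio was -0.22. Their summed level was 7065 CPM in WT, 13017 in Rbm20_het, 25991 in Rbm20_homo, 12015 in editor-negative and 10258 in editor-positive nuclei. In this sum, to which Ankrd1 contributes 1254 CPM in Rbm20_het and 826 in editor-negative nuclei, both corrected sets were below Rbm20_het. The median over members was the other way round for editor-negative nuclei, with a log2 ratio to WT of 0.78 against 0.72 in Rbm20_het.

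Membership was decided by the interval bound nearest to 1, not by the ratio itself. Of the high members, Vcan (2.80-fold over WT, lower bound 2.003) was just inside and Tns1 (2.05-fold, lower bound 1.99) just outside. Of the low members, Ncald (WT 2.14-fold over Rbm20_homo, bound 2.001) was inside and Haus4 (2.46-fold, bound 1.999) outside.

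**Figure D2:**
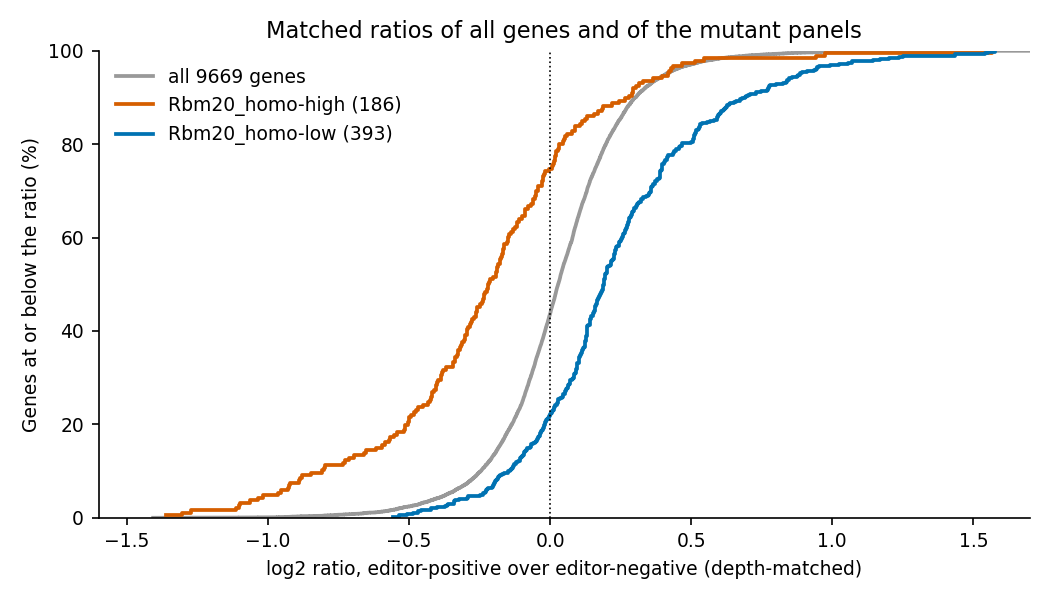
Cumulative distribution over genes of the log2 ratio of editor-positive to editor-negative nuclei, matched on depth (x axis), with the percent of genes at or below each ratio (y axis). The curve of 186 Rbm20_homo-high genes lies left of the curve of all 9669 genes (medians -0.22 and 0.03), and that of 393 Rbm20_homo-low genes right of it (0.19).

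Among the Rbm20_homo-low members, Myh7b, Mylk4 and Hopx were more than 2 times as high in editor-positive as in editor-negative nuclei. Myh7b (ENSMUSG00000074652, chr2:155611212-155634307, plus strand, GRCm38) held 347 CPM in WT nuclei, 1.5 in Rbm20_het, 0.309 in Rbm20_homo, 85.6 in editor-negative and 251 in editor-positive nuclei. The intervals of the 5 sets did not overlap, and editor-positive nuclei (240 to 263 CPM) were nearest to WT (338 to 356 CPM). The ratio was 2.93 [2.70 to 3.19], and it lay between 2.69 and 4.34 in the 5 depth quintiles. With every nucleus thinned to 1500 UMIs, Myh7b was detected in 28.7% of editor-positive nuclei, 9.71% of editor-negative, 37.5% of WT, 0.203% of Rbm20_het and 0.0341% of Rbm20_homo. It was found in 2.35% of the endothelial and 2.32% of the fibroblast nuclei of the corrected library.

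Mylk4 (ENSMUSG00000044951, chr13:32700834-32783954, minus strand), which encodes a myosin light chain kinase, held 474 CPM in WT nuclei, 384 in Rbm20_het, 28.1 in Rbm20_homo, 188 in editor-negative and 382 in editor-positive nuclei. Editor-positive nuclei matched Rbm20_het within counting error, and editor-negative ones were lower. The ratio was 2.04 [1.92 to 2.16]. Hopx (ENSMUSG00000059325, chr5:77086988-77115121, minus strand), a homeodomain protein that regulates transcription in heart muscle, held 76.4 CPM in WT nuclei, 12.2 in Rbm20_het, 0.788 in Rbm20_homo, 25.3 in editor-negative and 53.1 in editor-positive nuclei, a ratio of 2.10 [1.78 to 2.48]. For this gene both corrected sets were above Rbm20_het. The potassium channel gene Kcnd2 (ENSMUSG00000060882, chr6:21215503-21729805, plus strand), which carries the transient outward current, held 1740 CPM in WT nuclei, 1244 in Rbm20_het, 207 in Rbm20_homo, 1140 in editor-negative and 1728 in editor-positive nuclei. Its editor-positive interval, 1699 to 1758, overlapped that of WT, 1721 to 1760, and the ratio was 1.52 [1.48 to 1.56].

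Further Rbm20_homo-low members among the 12 genes ranked highest by the interval bound of their ratio were the cilium-related genes Rp1 and Cfap61, the neurotrophin gene Bdnf, the secreted factors Ccbe1 and Slit2 and the ephrin receptor gene Ephb1. Rp1 held 66.0 CPM in WT nuclei, 2.76 in Rbm20_homo, 6.69 in editor-negative and 19.9 in editor-positive nuclei, a ratio of 2.98 [2.20 to 4.09]. It stayed far below WT in both corrected sets. Ccbe1 held 74.0 CPM in WT nuclei, 53.6 in Rbm20_het, 2.42 in Rbm20_homo, 33.7 in editor-negative and 70.1 in editor-positive nuclei, so that only the editor-positive interval, 64.3 to 76.2, reached that of WT. Slit2 had a ratio of 1.99 [1.73 to 2.30], but 0.904 [0.671 to 1.22] among nuclei with at least 5% of UMIs from the 4 cardiomyocyte genes. Of the 10 low members farthest from WT in Rbm20_homo by the interval bound nearest to 1, all had ratios above 1, with Lgi1 at 2.25, Pm20d1 at 1.88, Rgs7 at 1.54 and Cmtm8 lowest at 1.33 [0.971 to 1.84].

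**Figure D3:**
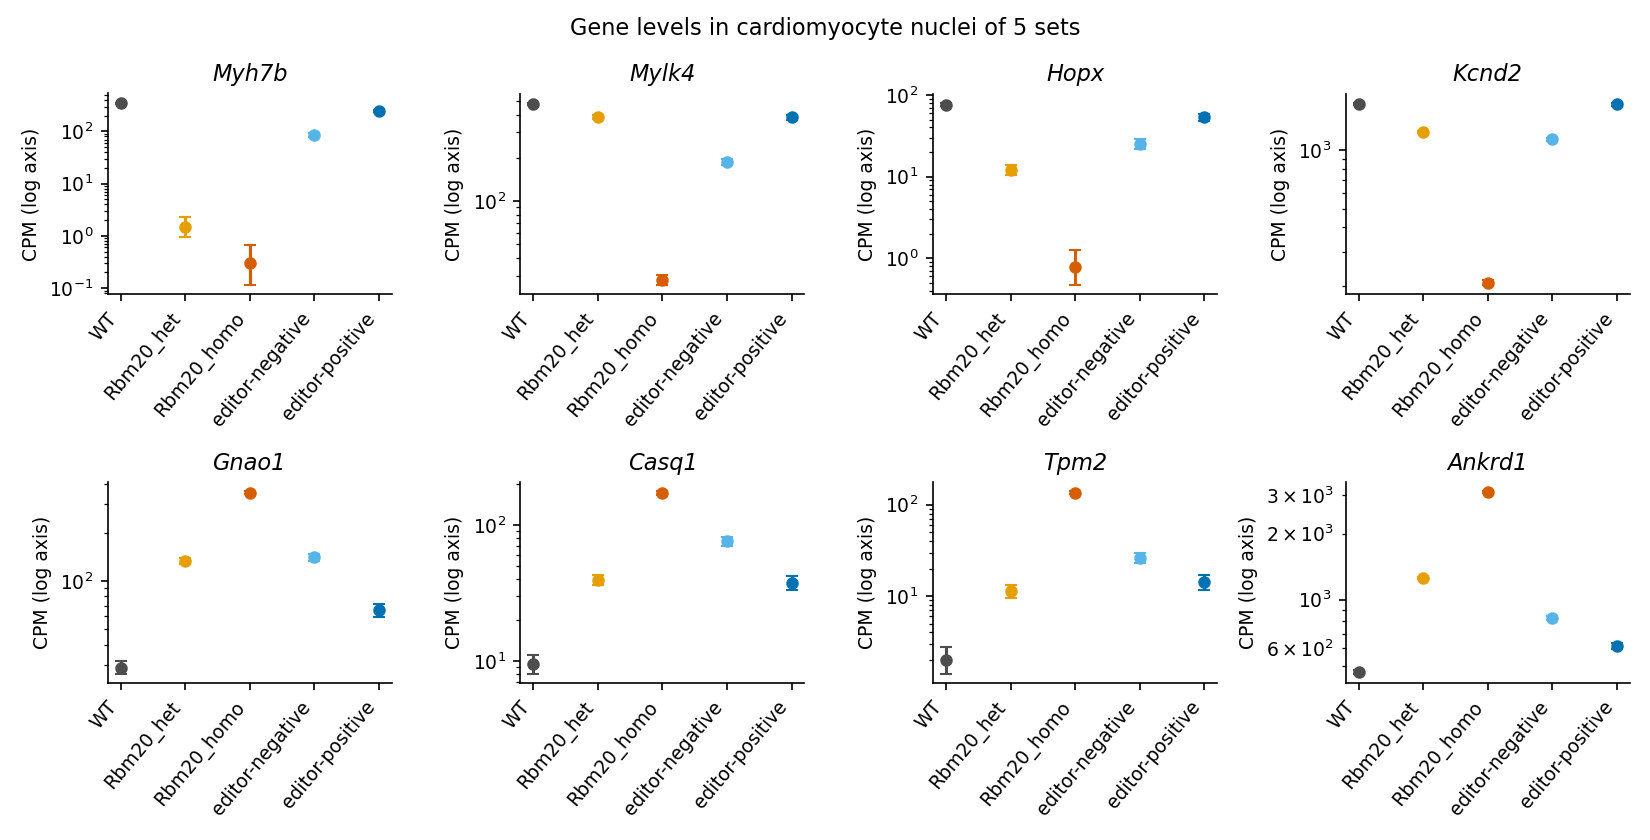
CPM (log axis) of 8 genes in cardiomyocyte nuclei of WT, Rbm20_het, Rbm20_homo and the editor-negative and editor-positive nuclei of the corrected library, with exact 95% Poisson intervals of counting error. In the upper panels, with Myh7b at 85.6 and 251 CPM as an example, editor-positive nuclei are above editor-negative ones, and in the lower panels, with Gnao1 at 140 and 65.3 CPM, below them.

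Among the Rbm20_homo-high members with ratios well below 1 were genes of signalling, calcium storage and the sarcomere. Gnao1 (ENSMUSG00000031748, chr8:93809966-93969388, plus strand), which encodes a G protein alpha subunit, held 28.8 CPM in WT nuclei, 133 in Rbm20_het, 355 in Rbm20_homo, 140 in editor-negative and 65.3 in editor-positive nuclei, a ratio of 0.466 [0.420 to 0.517]. Fibroblast nuclei of the corrected library also held Gnao1, in 35.1% of those thinned to 1500 UMIs.

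Casq1 (ENSMUSG00000007122, chr1:172209894-172219868, minus strand), the calsequestrin of skeletal muscle that buffers calcium in the sarcoplasmic reticulum, held 9.45 CPM in WT nuclei, 39.4 in Rbm20_het, 171 in Rbm20_homo, 75.7 in editor-negative and 37.4 in editor-positive nuclei. The editor-positive interval, 33.2 to 42.0, held the Rbm20_het level, and the ratio was 0.494 [0.429 to 0.567]. Tpm2 (ENSMUSG00000028464, chr4:43514711-43523765, minus strand), a tropomyosin gene, held 2.02 CPM in WT nuclei, 11.3 in Rbm20_het, 136 in Rbm20_homo, 26.4 in editor-negative and 14.3 in editor-positive nuclei. Its ratio was 0.541 [0.430 to 0.678]. Ankrd1 (ENSMUSG00000024803, chr19:36111961-36120099, minus strand), a stress-responsive protein of the sarcomere and nucleus, held 469 CPM in WT nuclei, 1254 in Rbm20_het, 3099 in Rbm20_homo, 826 in editor-negative and 616 in editor-positive nuclei, a ratio of 0.745 [0.718 to 0.772]. All 4 of these genes were lower in editor-positive nuclei in every depth quintile.

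Further Rbm20_homo-high members among the 12 genes ranked lowest by that bound were Pcolce (0.389), which encodes an enhancer of collagen processing, the anion exchanger gene Slc26a4 (0.413), Fam78a (0.465), the secreted protein gene Vwc2 (0.479), the cell adhesion gene Cntn3 (0.488), Ctdspl (0.512) and the T-type calcium channel gene Cacna1g (0.526). Cacna1g held 29.9 CPM in WT nuclei, 55.5 in Rbm20_het, 118 in Rbm20_homo, 80.1 in editor-negative and 42.2 in editor-positive nuclei. Of the 10 high members farthest from WT in Rbm20_homo by the same bound, all had ratios below 1, but those of Syndig1 (0.706 [0.477 to 1.04]) and Kctd16 (0.963 [0.833 to 1.11]) had intervals that held 1. Syndig1 was above 1, at 1.33, without the deepest quintile. Fkbp5, a chaperone gene induced by glucocorticoids, held 17.9 CPM in WT nuclei, 257 in Rbm20_homo, 36.0 in editor-negative and 29.6 in editor-positive nuclei, a ratio of 0.822 [0.691 to 0.976].

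Not every gene that was high in Rbm20_homo was lower in editor-positive nuclei. Nppa (ENSMUSG00000041616, chr4:148000722-148002079, plus strand), the atrial natriuretic peptide gene, is on the atrial marker list and so in neither panel. It held 10.6 CPM in WT nuclei, 36.2 in Rbm20_het, 989 in Rbm20_homo, 35.5 in editor-negative and 38.3 in editor-positive nuclei. Both corrected sets were close to Rbm20_het, and the ratio between them was 1.08 [0.920 to 1.27]. Nppb, the gene of the related B-type peptide, held 12.5 CPM in WT nuclei, 109 in Rbm20_homo, 10.6 in editor-negative and 15.4 in editor-positive nuclei, with a ratio of 1.46 [1.11 to 1.92]. The prostaglandin synthase gene Ptgds (1.92) and the skeletal actin gene Acta1 (1.43), named after their values were seen, are Rbm20_homo-high members with ratios above 1 as well.

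Genes outside both panels were among the extremes. The scaffold gene Grip1 held 13.4 CPM in WT nuclei, 6.09 in Rbm20_het, 9.79 in Rbm20_homo, 5.57 in editor-negative and 16.2 in editor-positive nuclei, a ratio of 2.91 [2.10 to 4.09]. The guidance factor gene Slit3 had a ratio of 1.94 [1.71 to 2.20], which was 1.28 among nuclei with 0 UMIs of the endothelial and fibroblast rule genes. At the low end were the protocadherin gene Pcdh11x at 0.377 [0.251 to 0.554] and Pirt, which encodes a regulator of an ion channel, at 0.573 [0.514 to 0.638].

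The genes of the rule and the splicing targets of RBM20 differed less. Titin (Ttn, ENSMUSG00000051747, chr2:76703980-76982547, minus strand) held 25078 CPM in WT nuclei, 20971 in Rbm20_het, 17593 in Rbm20_homo, 20063 in editor-negative and 24179 in editor-positive nuclei, a ratio of 1.21 [1.2 to 1.21]. Ryr2, the calcium release channel gene, had a ratio of 1.0 [0.994 to 1.01], Myh6, the main myosin gene of the adult mouse heart, 1.01 [1.0 to 1.02], and Rbm20 itself 1.08 [1.06 to 1.09]. As these genes entered the rule, their levels are a description. Of 19 splicing targets listed, all measured, 0 were at least 25% higher and 1 was at least 20% lower, the Z-disc gene Pdlim3 at 0.757 [0.692 to 0.827]. Their median log2 ratio was 0.00. Over all measured genes, 8.72% were at least 25% higher and 6.41% at least 20% lower. The kinase gene Camk2g was at 142 CPM in editor-negative and 119 in editor-positive nuclei. These are levels of whole genes, and splicing was not measured.

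Of 25 sarcomere and Z-disc genes, all measured, 22 had ratios above 1 (88.0%, against 56.3% of all measured genes). At least 25% higher were 7 (28.0%, against 8.72% of all measured genes), namely Myh7b, Mylk4, Tnnc1, Acta1, Myh7, Myl3 and Mylk3. At least 20% lower was 1 (4.0%, against 6.41% of all measured genes), Tpm2. The list median was 0.13 on the log2 scale. Tnnc1, the cardiac troponin C gene, was higher in Rbm20_homo than in WT: it held 615 CPM in WT nuclei, 292 in Rbm20_het, 701 in Rbm20_homo, 422 in editor-negative and 669 in editor-positive nuclei, a ratio of 1.59 [1.52 to 1.65]. Myl3, the ventricular essential light chain gene, held 388 CPM in WT nuclei, 234 in Rbm20_het, 220 in Rbm20_homo, 289 in editor-negative and 384 in editor-positive nuclei. For Myh7, the slow myosin gene, these levels were 293, 233, 255, 245 and 337 CPM, highest in editor-positive nuclei. Tnnc1, Myl3, Acta1 and Mylk3 were named after their values were seen.

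Of 14 stress and fetal genes, 10 were measured, with 3 at least 25% higher (Nppb, Acta1 and Myh7) and 1 at 0.8 or less (Ankrd1). The list's summed ratio was 0.946 while its median log2 ratio was 0.08, so the sum and the median lay on opposite sides of no difference. Of 16 calcium handling genes, 14 were measured, 0 were at least 25% higher and 1 was at 0.8 or less, Casq1. The exchanger gene Slc8a1 had a ratio of 1.13 [1.12 to 1.15] and the L-type channel gene Cacna1c of 1.17 [1.16 to 1.18]. Of 17 genes of ion channels and gap junctions, 15 were measured and Kcnd2 alone was at least 25% higher, with a list median of 0.02. Of 15 cardiac transcription factors, 14 were measured and Hopx alone was at least 25% higher. Of all measured genes 8.72% were at least 25% higher. The share was 30.0% of the stress and fetal, 6.67% of the ion channel and 7.14% of the transcription factor list. At 0.8 or less were 10.0% of the stress and fetal and 7.14% of the calcium handling list, against 6.41% of all genes.

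Metabolic genes differed little. Of 23 genes of fatty acid oxidation, all measured, 18 had ratios above 1 (78.3%, against 56.3% of all measured genes). Their median log2 ratio was 0.09. None was at least 25% higher, and Pdk4, a kinase that restrains glucose oxidation, had 0.773 [0.698 to 0.856]. Of 21 genes of mitochondrial respiration and biogenesis, all measured, 17 were above 1 (81.0%) with a median of 0.09. Of these 21 genes, 0 were at least 25% higher or 20% lower. Of 16 genes of glucose transport and glycolysis, 15 were measured, with 1 (6.67%) beyond these limits in each direction. They were Gapdh at 1.27 [1.05 to 1.52] and Pfkp, a phosphofructokinase gene, at 0.792 [0.707 to 0.887]. Over all measured genes, 8.72% were past the higher and 6.41% past the lower limit. The hexokinase gene Hk2 held 406 CPM in WT nuclei, 218 in Rbm20_homo, 240 in editor-negative and between 288 and 312 in editor-positive nuclei.

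Among the remaining lists, the circadian clock had 13 of 16 genes measured, 3 of them at least 25% higher. That is 23.1% of those measured, against 8.72% of all measured genes. The output gene Dbp held 136 CPM in WT nuclei, 78.0 in Rbm20_het, 23.1 in Rbm20_homo, 26.2 in editor-negative and 42.2 in editor-positive nuclei, a ratio of 1.61 [1.36 to 1.91]. Per2 was at 13 CPM in editor-negative and 19.4 in editor-positive nuclei and between 51.0 and 66.6 in the 3 other libraries. Of 27 genes of interferon signalling and innate sensing, 24 were features of the files and 8 were measured. Of these 8, 4 were at 0.8 or less (Ifih1, B2m, H2-K1 and H2-D1), where 6.41% of all measured genes were. The interval of B2m (0.762 [0.577 to 1.001]) held 1, and that of H2-D1 (0.759 [0.573 to 0.999]) came close to it. H2-K1 had 0.732 [0.590 to 0.905]. The median log2 ratio of the list was -0.24. The immune marker list was also lower in editor-positive nuclei, with a summed ratio of 0.634. Whether these lists are linked was not tested. Of 20 ribosomal protein genes, all measured, 5 were at least 25% higher, with a median of 0.17. The 18 splicing regulators, all measured, had 0 beyond these limits in either direction.

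Markers of other cells and signs of nuclear quality also differed between the sets, and their part in the results was not tested. The immune list of 14 genes had a summed level of 160 CPM in editor-negative and 101 in editor-positive nuclei, a summed ratio of 0.634. The 4 members measured were all below 0.8, where 6.41% of all measured genes were at 0.8 or less. The endothelial list, 10 of 10 measured, had 152 and 139 CPM, and the fibroblast list, 6 of 10 measured, 213 and 211 CPM. Both lists include genes that the rule held to at most 3 UMIs per nucleus, so these levels are in part a description of the choice. The atrial list was at 49.1 and 50.8 CPM, of which Nppa alone held 35.5 and 38.3. The atrial genes Sln and Bmp10 were at 0 UMIs in both sets, as in WT, Rbm20_het and Rbm20_homo, and Myl7 in editor-positive nuclei. Other members had few UMIs and went both ways. Sbk2 (17 UMIs in editor-negative and 21 in editor-positive nuclei) had a ratio of 2.24 [1.13 to 4.52]. Stard10 (38 and 16 UMIs) had 0.466 [0.243 to 0.856]. Malat1, a noncoding RNA retained in the nucleus, held 145106 CPM in WT nuclei, 148418 in Rbm20_het, 229097 in Rbm20_homo, 169418 in editor-negative and 142303 in editor-positive nuclei, a ratio of 0.840 [0.838 to 0.842]. The median share of mitochondrial UMIs was 0.194% in editor-negative and 0.169% in editor-positive nuclei, and the median share of the 4 cardiomyocyte genes was 4.69% and 5.17%. With nuclei matched on depth quintile and Malat1 share (in 3 classes) together, the median log2 ratio was -0.24 for the Rbm20_homo-high and 0.13 for the Rbm20_homo-low members. Without nuclei holding a UMI of the immune list it was -0.17 and 0.19.

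It was then asked whether the differences grew with the number of editor UMIs. Myh7b was at 85.6 CPM in nuclei with 0 editor UMIs, then 190, 231, 237, 292 and 329 in nuclei with 1, 2, 3 to 4, 5 to 9 and 10 or more. The interval of the last class, 297 to 363, held the WT level. Mylk4 was at 188 CPM with 0 and at 333, 346, 371, 389 and 438 CPM in the same order, where neighbouring classes above 0 overlapped within their intervals. Gnao1 was at 140 CPM with 0 editor UMIs, 89.3 with 1, 58.8 with 2, 66.1 with 3 to 4, 56.4 with 5 to 9 and 67.8 with 10 or more. Casq1 was at 75.7 CPM with 0 and between 35.0 and 49.5 in all other classes, so most of its difference lay between 0 and 1 editor UMIs.

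For the panels as a whole the step from 0 to 1 editor UMI was also the main one. The median log2 ratio of the Rbm20_homo-low members to nuclei with 0 was 0.13 with 1 editor UMI, 0.22 with 2, 0.19 with 3 to 4, 0.19 with 5 to 9 and 0.16 with 10 or more. That of the Rbm20_homo-high members was -0.19, -0.28, -0.36, -0.21 and -0.28. Neither moved steadily further from 0 beyond 2 editor UMIs. Nuclei with more editor UMIs also had higher median shares of the 4 cardiomyocyte genes, 4.91% with 1 and 6.03% with 10 or more.

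**Figure D4:**
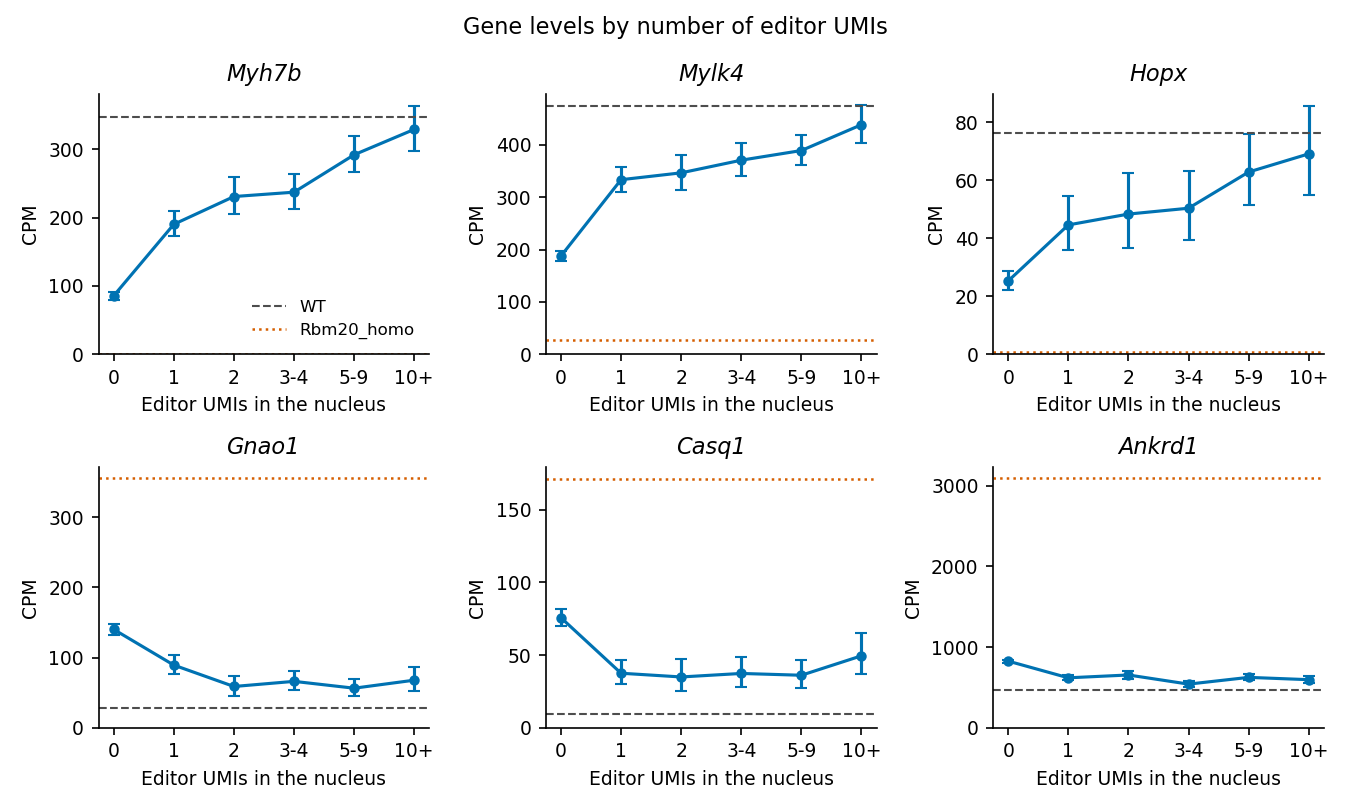
CPM of 6 genes in corrected cardiomyocyte nuclei by the number of editor UMIs in the nucleus (x axis), weighted to 1 set of depth quintiles, with exact 95% Poisson intervals; lines mark the WT (dashed) and Rbm20_homo (dotted) levels. Myh7b runs from 85.6 to 329 CPM, and Casq1 is at 75.7 CPM with 0 editor UMIs and at most 49.5 with any.

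Nuclei with only 1 of the 2 features differed from editor-negative nuclei as well. Myh7b was at 221 CPM with ABE_C alone [196 to 248], 219 with ABE_N alone [202 to 238] and 283 with both [266 to 300]. Mylk4 was at 288, 342 and 427 CPM, and Gnao1 at 79.3, 74.1 and 60.1. The median log2 ratio of the Rbm20_homo-low members was 0.15, 0.20 and 0.20, and that of the Rbm20_homo-high members -0.28, -0.18 and -0.25. A nucleus with 1 feature detected may hold both, since detection followed depth.

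Last, each nucleus was given the share of its panel UMIs that came from Rbm20_homo-high genes, after thinning to 1500 UMIs, which left out 7 editor-positive and 62 editor-negative nuclei. The median share was 10.0% in WT, 22.2% in Rbm20_het, 56.5% in Rbm20_homo, 22.5% in editor-negative and 17.3% in editor-positive nuclei. The middle 50% of editor-negative nuclei lay between 17.2 and 29.2%, and of editor-positive nuclei between 13.5 and 22.7%. In Rbm20_het it lay between 18.3 and 26.9%. A share rested on a median of 78 panel UMIs in editor-negative and 84 in editor-positive nuclei, so counting error is part of this spread. A share above 33.3%, midway between the WT and Rbm20_homo medians, was found in 15.2% of editor-negative nuclei [13.7 to 16.9] and 4.96% of editor-positive ones [3.85 to 6.28]. In WT it was 0.839%, in Rbm20_het 7.21% and in Rbm20_homo 99.0%. The panel was chosen in these WT and Rbm20_homo nuclei, so their own shares are fixed by the choice. Within 5 percentage points of that midpoint lay 426 editor-negative and 113 editor-positive nuclei, so these shares describe a range and not a type of cell.

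**Figure D5:**
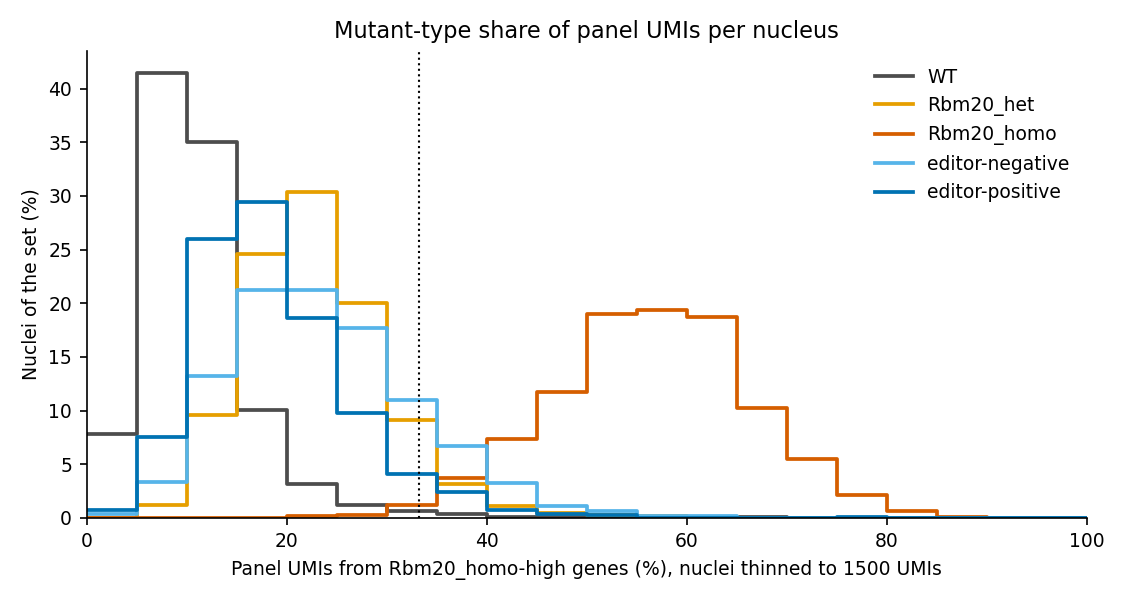
Percent of nuclei of each set (y axis) by the percent of their panel UMIs that came from Rbm20_homo-high genes (x axis, bins of 5), all nuclei thinned to 1500 UMIs; the dotted line is the midpoint of 33.3%. The editor-positive curve (median 17.3%) lies between those of WT (10.0%) and of editor-negative nuclei (22.5%), and all are left of Rbm20_homo (56.5%).

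Neither corrected set reached the WT levels of the panels. The median log2 ratio of the measured Rbm20_homo-high members to WT was 1.67 in Rbm20_homo, 0.78 in editor-negative, 0.72 in Rbm20_het and 0.56 in editor-positive nuclei. For the Rbm20_homo-low members it was -1.54, -0.60, -0.43 and -0.41 in the same order. These ratios share the WT nuclei as denominator, and they set nuclei of different libraries side by side.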

How the data were processed

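The authors deposited 1 matrix of raw UMI counts per library, whole numbers per gene and barcode with no normalization, per the file headers. Cell Ranger is given as version 6.1.1, beside Seurat 4 and the build mm10 (GRCm38), per the submitters' processing notes, and as version 4.0.0 per the file headers. The counting of introns and the filter on barcodes are not given in the sources used here. Of 32287 features, 32285 are mouse genes, and gene positions came from GENCODE vM21. The members, gene lists and measures were chosen with earlier results of these data known.

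UMIs were summed over nuclei in quintiles of total UMIs. A ratio is the observed UMIs in editor-positive nuclei over those expected from editor-negative rates in the same quintiles, with an exact conditional binomial interval. Levels have exact Poisson intervals and shares of nuclei Clopper-Pearson intervals, all at 95% and for counting error only. Editor and mitochondrial UMIs were left out of the CPM total of 1000000. With 1 library per group no test was run. Among genes of 1 symbol the first ID was used in gene lists. Computed ratios were tested on simulated Poisson counts, which hold no variation between nuclei or hearts. Software was Python 3.11.15, numpy 2.4.6, scipy 1.17.1, pandas 2.3.3, scanpy 1.11.5 and matplotlib 3.10.9.

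Named genes were the 6 features of the rule, the 12 highest and 12 lowest ratios (ranked on whichever bound of the interval lay closer to 1, given 100 or more UMIs in the higher set), the 10 members of each panel farthest from WT in Rbm20_homo by that bound with at least 100 UMIs, up to 3 per pathway list with at least 200 UMIs, and 10 genes known from earlier results. Mitochondrial, haemoglobin and sex-linked genes and unnamed gene models were left out of the ranked choices. Possible doublets were kept, and the 1813 barcodes with the highest Scrublet scores (0.8% per 1000 barcodes), among them 91 editor-positive and 161 editor-negative nuclei, were removed in an alternative. Some genes that this rule names are not reported here.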

Additional observations from a re-analysis of the deposited data

How the results depend on the processing

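The 9669-gene comparison was repeated under 17 alternatives set out at the start and 4 chosen after seeing the data. The median log2 ratio of the Rbm20_homo-high genes was below 0 and that of the Rbm20_homo-low genes above 0 under all 21, and with members chosen at 1.5-fold or 3-fold. Medians outside the order-statistic interval of the reported median were, for the high genes, -0.13 without the deepest quintile, -0.26 with Malat1 out of the total, -0.17 without nuclei with a UMI of the immune list, and -0.12 and -0.31 with members past 1.5-fold and 3-fold. For the low genes they were 0.14 at the 5% cardiomyocyte threshold, 0.14 with Malat1 out of the total, 0.13 with quintiles and 3 classes of Malat1 share together, and 0.14 and 0.38 with members past 1.5-fold and 3-fold.

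The number of genes at least 25% higher and at least 20% lower was 843 and 620, 1287 and 1060 with a minimum of 50 UMIs, and 232 and 131 with 400. The split turned with the scaling: it was 630 and 802 with Malat1 out of the total, 660 and 767 with no matching, and 709 and 724 with median-of-ratios scaling. The all-gene median log2 ratio was -0.00082 with median-of-ratios scaling and -0.018 with Malat1 out of the total.

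The share of nuclei with an editor UMI was 47.1% at the 5% threshold, 26.6% for 2 or more editor UMIs, 17.5% for both features and 24.1% after thinning. Nuclei nearer Rbm20_homo than WT were 12.3% of editor-negative nuclei thinned to 3000 UMIs. They were 26.1% of editor-negative and 9.47% of editor-positive nuclei with members past 3-fold, and 11.1% and 3.03% at the 5% threshold.

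The named genes include the 12 highest and 12 lowest ratios of the same comparison. How many of their intervals exclude 1 was therefore fixed in part by the choice. All alternatives reuse nuclei of the same library, so a kept side of 1 is no independent test. A different minimum of UMIs per gene changed no ratio. Of 89 named genes, 75 had an interval that excluded 1, and 69 of these kept their side of 1 under every alternative. Those that did not, at the 5% threshold, were Slit2 (0.904), Myl1 (1.15), H2-D1 (1.02), Bhlhe40 (0.981) and Rpl3 (0.990). Rpl3 was at 0.911 with 0 UMIs of the endothelial and fibroblast rule genes, H2-D1 at 1.05 after thinning, and Gapdh at 0.893 with 5 or more editor UMIs. Of the gene lists, the median of mitochondrial respiration was -0.0096 with no matching and -0.0075 with 5 or more editor UMIs, that of ribosomal proteins -0.0055 with 5 or more, and that of interferon genes 0.14 at the 5% threshold and 0.055 with 0 UMIs of the rule genes of other cells. The cause of these shifts was not tested.

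No pairing within hearts was possible, because both sets came from 1 library whose nuclei are not mapped to its pooled hearts. Depth limits the split itself, since a nucleus with few UMIs can hold the editor and show none.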

Other observations

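Nuclei outside the rule also held editor transcripts. Of 620 nuclei that met the cardiomyocyte threshold but had more than 3 UMIs of the endothelial or of the fibroblast genes, 49.4% [45.4 to 53.4] held an editor UMI, at a median depth of 6842 UMIs. They had 20.1 editor UMIs per 1000 Ttn UMIs [19.2 to 21.0], against 16.4 in the 3357 nuclei described above. Endothelial nuclei below the cardiomyocyte threshold had 110 editor UMIs in 2603 nuclei, and 8 of them (0.307%) had 2 or more. Fibroblast nuclei had 197 editor UMIs in 4278 nuclei, and 20 of them (0.468%) had 2 or more.

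Several lists of markers of other cells had higher summed levels in editor-positive nuclei. The smooth muscle list was at 12.6 CPM in editor-negative and 15.0 in editor-positive nuclei, and the mesothelial and epicardial list, with no gene measured, at 1.52 and 3.60 CPM. The pericyte list was at 372 CPM in editor-negative and 427 in editor-positive nuclei, and the lymphatic endothelial list at 137 and 155 CPM. Most of the pericyte sum and most of the lymphatic sum came from 1 gene each. Abcc9 alone held 263 and 320 CPM of the pericyte list, of which 3 of 6 measured members had ratios below 1. Prox1 alone held 115 and 139 CPM of the lymphatic list, of which 2 members were measured. In WT the pericyte and lymphatic lists were at 445 and 148 CPM, and in Rbm20_homo at 191 and 83.7 CPM. Abcc9 held 353 CPM in WT and 94.8 in Rbm20_homo, and Prox1 131 and 56.3 CPM.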
